A study of Homo sapiens with 6 samples.

Results

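Regions of the human autosomes that carried a peak of both ubiquitylated and total H2A.Z are described here. They were obtained by merging overlapping or touching peaks of the 2 deposited peak lists and keeping each merged region on chromosomes 1 to 22 with at least 1 peak of each list. The rule found 79950 such shared regions among 190587 merged autosomal regions, which is 41.9% (Wilson 95% interval 41.7 to 42.2%), and among 198179 merged regions with the sex chromosomes included. Of the other autosomal regions, 54327 held ubiquitylated peaks only and 56310 held total peaks only. The presence of both peaks chose the regions, so their number and their overlap are a description. The differential calls come from the same libraries as the peaks and are described in the same way.

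The cells were HEK293T, an established human embryonic kidney line, examined 48 hours after transfection with H2A.Z-1 fused at its C-terminus to Flag-BirA, together with ubiquitin carrying an AviTag at its N-terminus, at a plasmid ratio of 3 to 1. The groups were ubiquitylated H2A.Z pulled down with streptavidin (2 samples), total tagged H2A.Z pulled down with Flag M2 agarose (2 samples) and histone H3 (2 samples). All groups share the transfected cell line and 30 minutes of micrococcal nuclease digestion. Tagged, transfected H2A.Z was recovered and not the endogenous protein, and the total pull-down contains the ubiquitylated form as well. Nothing in the labels says that replicates came from separate cultures, so the authors' error rates may measure technical spread. The deposited lists give no value for a single library, so the depth of each sample is unknown and no replicate values or tests between libraries can be given. Intervals on shares cover counting error only, and neighbouring regions are not independent. The labelled cell type could not be set against marker genes, since expression was not measured.

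H2A.Z replaces histone H2A in some nucleosomes and is put there by the SRCAP and p400 remodelling complexes, mostly at promoters, enhancers and other regulatory sites. Its C-terminal tail can be monoubiquitylated, a modification that RING1B, the ubiquitin ligase of Polycomb repressive complex 1, can carry out and that has been linked to silent chromatin such as the inactive X chromosome. BirA is a biotin ligase that attaches biotin to the AviTag, so in these cells the ubiquitin attached near an H2A.Z-BirA fusion becomes biotinylated and can be captured with streptavidin.

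Shared regions held the larger part of both peak lists. They contained 83093 of 137421 autosomal ubiquitylated peaks (60.5%) and 82695 of 139005 autosomal total peaks (59.5%). In bases they held 66.9% of the ubiquitylated and 70.0% of the total peak length. Few regions lay at the limits of the rule. Only 5 pairs of peaks overlapped by 1 to 10 bp, and 3 neighbouring regions of opposite single lists lay 1 to 10 bp apart. The lowest irreproducible discovery rate (IDR), the authors' error rate for a peak's agreement between replicates, lay between 0.045 and the limit of 0.05 for the ubiquitylated peak in 380 shared regions and for the total peak in 854.

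Most shared regions were simple. In 74830 of them (93.6%) a single ubiquitylated peak met a single total peak. A further 2456 (3.07%) held 2 ubiquitylated peaks and 1 total peak, and 2011 (2.52%) held 1 ubiquitylated peak and 2 total peaks. Shared regions were 425 bp wide at the median (quartiles 289 and 663 bp), against 276 bp for regions with ubiquitylated peaks only and 251 bp for regions with total peaks only. Their widths ran from 143 to 17946 bp. A region that joins peaks of 2 lists is wider by construction, and a wide peak meets a second peak more easily. Shared regions made up 13.6% of merged regions up to 200 bp wide, 69.2% of those of 600 to 1000 bp and 95.4% of the 175 over 3000 bp.

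Where there was 1 peak of each form, the peaks occupied nearly the same bases. The ubiquitylated peak had a median width of 337 bp and the total peak 355 bp, and the median difference, ubiquitylated minus total, was -7 bp (quartiles -56 and 29 bp). The centres lay 19.5 bp apart at the median (quartiles 7.5 and 57 bp). That distance is far less than the length of DNA in a nucleosome. Both edges agreed within 50 bp in 56.6% of pairs, and at least 1 edge differed by 150 bp or more, about a nucleosome, in 21.7%. The median pair shared 84.9% of the region's bases, and 10.2% of pairs shared under 50%. Staggered pairs, in which neither peak held the other, were equally common on both sides. The ubiquitylated peak was the left of the staggered peaks in 21.9% of pairs and the right in 21.8%. It lay inside the total peak in 31.6%, enclosed it in 24.6%, and matched it base for base in 50 pairs.

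**Figure D1:**
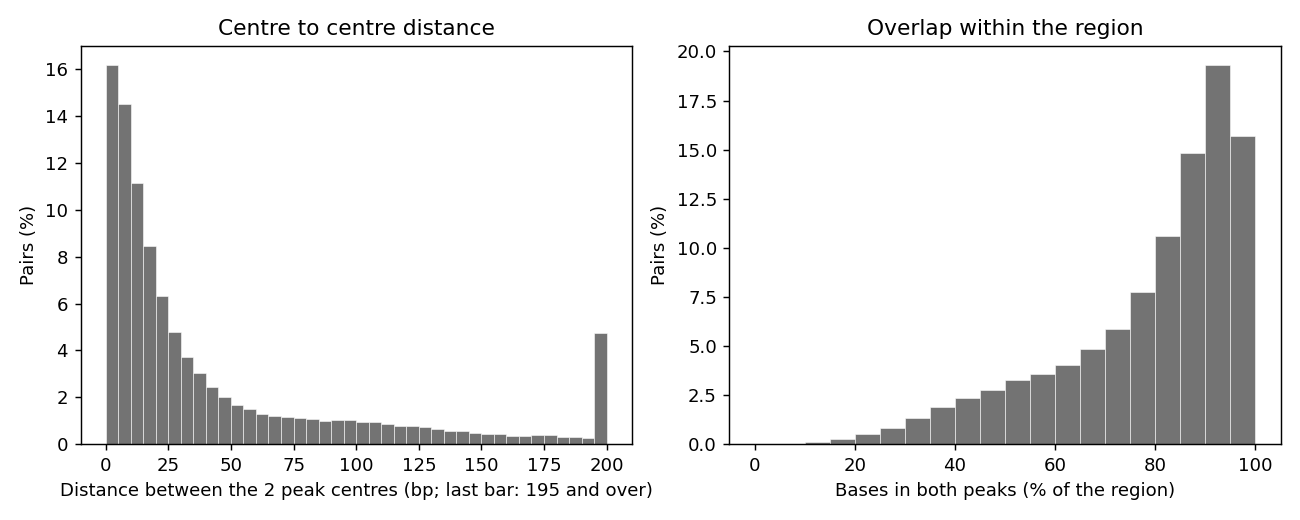
Distance between the centres of the ubiquitylated and the total peak (left, bp) and share of the region's bases that lie in both peaks (right, %), as the percentage of the 74830 regions with 1 peak of each form. Most pairs sit at the left of the first panel and the right of the second, with medians of 19.5 bp and 84.9%.

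Widths and reproducibility behaved differently across pairs. The widths of the 2 peaks followed each other, with a Spearman rho of 0.75 across 74830 pairs. The IDR values of the 2 peaks did so only weakly, with a rho of 0.16. The 2 peaks of a pair share the genome position and the transfected cell line, and the total pull-down contains the ubiquitylated form. Both values are therefore descriptions across regions. Within each list the IDR was nearly unrelated to peak width, with a rho of -0.09 for ubiquitylated and -0.05 for total peaks. The median of the lowest IDR per region was 0.000945 for ubiquitylated peaks in shared regions against 0.00227 in regions with ubiquitylated peaks only. For total peaks the medians were 0.00283 in shared regions and 0.00401 in regions with total peaks only. Both differences were smaller than the distance between the quartiles within each list: for ubiquitylated peaks of shared regions the quartiles were 0.000205 and 0.00375.

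The next question was at which shared regions the 2 forms differed in amount. The authors' deposited table of differential regions (FDR of at most 0.05) placed 4706 shared regions (5.89%, 5.73 to 6.05%) higher in ubiquitylated and 6175 (7.72%, 7.54 to 7.91%) higher in total H2A.Z. The other 69069 (86.4%) were in neither list. Over all 198179 merged regions, sex chromosomes included, 9.39% were higher in ubiquitylated H2A.Z and 12.1% in the total form. Over the autosomal merged regions alone the shares were 9.23% and 12.4%. The shares of all merged regions at stricter limits also include the sex chromosomes. Nothing is read from these lower shares, since the rule and the calls use the same libraries. Streptavidin and Flag agarose are different reagents, and their effect cannot be told apart from that of ubiquitylation. With an FDR of at most 0.01 the numbers were 2350 towards ubiquitylated and 3553 towards total H2A.Z, against 5.26% and 7.21% of all merged regions. In the authors' deposited table the shared regions higher in ubiquitylated H2A.Z had log2 fold changes with a median of 0.50 (quartiles 0.43 and 0.60). Shared regions higher in total H2A.Z had a median of -0.56 (quartiles -0.66 and -0.48) in the authors' deposited table. The base of the fold changes is not stated in the files and was read as 2. Changes of 2-fold or more were rare in the authors' deposited table, with 23 shared regions towards ubiquitylated and 47 towards total H2A.Z. These were 0.0288% and 0.0588% of shared regions, where over all merged regions 1.47% reached this size towards ubiquitylated H2A.Z and 2.39% towards the total form. The rule asks for a peak of both forms, so nothing is read from this rarity.

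Differences in amount went with differences in extent. Among the pairs higher in ubiquitylated H2A.Z the ubiquitylated peak was the wider in 92.1%, with medians of 740 bp for the ubiquitylated and 485 bp for the total peak. Among those higher in total H2A.Z the total peak was the wider in 97.4%, with medians of 362 bp for the ubiquitylated and 581 bp for the total peak. Peak width and fold change come from the same reads, so the 2 measures do not support each other. The share higher in ubiquitylated H2A.Z was 7.34% where its peak was wider than the total peak by a factor of up to 1.4, 32.5% where it was 2 to 4 times as wide and 68.4% (62.8 to 73.4%) where it was over 4 times as wide. The opposite share was 69.6% (62.6 to 75.8%) where the ubiquitylated peak had less than 1/4 of the total peak's width. No region was higher in total H2A.Z among the 2517 pairs with a ubiquitylated peak 2 to 4 times as wide (upper bound 0.152%) or the 294 pairs with a still wider one (upper bound 1.29%). Across the 9694 pairs called in either direction the fold change and the log2 ratio of widths had a rho of 0.79. Within a direction the relation was weaker, with a rho of 0.22 for the 4050 pairs higher in ubiquitylated and 0.27 for the 5644 pairs higher in total H2A.Z.

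**Figure D2:**
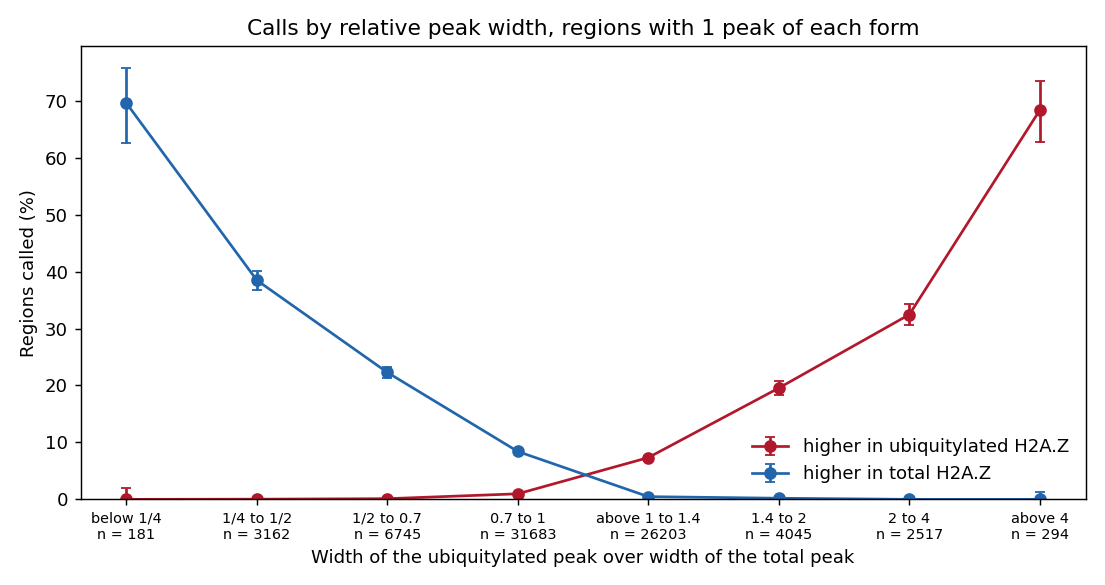
Percentage of regions with 1 peak of each form that were higher in ubiquitylated (red) or total H2A.Z (blue) in the authors' table, by the ratio of the ubiquitylated to the total peak width. Points are shares and bars are Wilson 95% intervals. The red share climbs to 68.4% at the widest ubiquitylated peaks and the blue share reaches 69.6% at the other end.

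Extensions of 150 bp or more were mostly on a single flank. Among pairs higher in ubiquitylated H2A.Z the ubiquitylated peak passed both edges of the total peak in 66.1%, but it passed both by 150 bp or more in only 5.16%. It passed exactly 1 edge by that much in 43.8%. The pairs higher in total H2A.Z had the same form. Their total peak passed both edges of the ubiquitylated peak in 79.8%, both by 150 bp or more in 4.22% and exactly 1 by that much in 42.5%. Counted in bases, 66.0% of the length of regions higher in ubiquitylated H2A.Z lay in peaks of both forms, 32.3% in ubiquitylated peaks alone and 1.64% in total peaks alone. In regions higher in total H2A.Z the shared part was also 66.0%, with 0.840% in ubiquitylated peaks alone and 33.2% in total peaks alone. In regions in neither list it was 78.1%, with 10.1% and 11.8% in ubiquitylated and total peaks alone.

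Regions with unequal numbers of peaks leaned to the form with fewer peaks. In 2189 regions with fewer ubiquitylated than total peaks, 23.6% (21.8 to 25.4%) were higher in ubiquitylated H2A.Z and 2.24% in the total form. In 2619 regions with more ubiquitylated than total peaks, 3.78% were higher in ubiquitylated H2A.Z and 17.8% (16.4 to 19.3%) in the total form. Median widths were 1134 bp with fewer and 1069 bp with more ubiquitylated than total peaks, against 404 bp with equal numbers.

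Region width and direction were linked. Shared regions higher in ubiquitylated H2A.Z were 821 bp wide at the median, those higher in total H2A.Z 616 bp, and those in neither list 391 bp. The regions higher in ubiquitylated H2A.Z had a larger median width than those higher in total H2A.Z on 22 of 22 autosomes, by 197 ± 77.4 bp (SD over autosomes). The share of shared regions higher in ubiquitylated H2A.Z was 0.0406% up to 200 bp, 10.9% at 600 to 1000 bp, 18.7% at 1000 to 1500 bp and 48.5% (41.0 to 56.0%) over 3000 bp. The share higher in total H2A.Z was 0.446%, 14.2%, 14.3% and 2.99% (1.29 to 6.82%) in the same classes. It thus declined beyond 1500 bp while the other continued upwards. The number of reads in a region is not known, and its part in these shares was not tested. In the authors' deposited table the smallest log2 fold change listed towards the ubiquitylated form was 0.48 in shared regions up to 300 bp and 0.32 in those over 1500 bp, so sizes of change are not compared between widths.

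Wide shared regions differed with their place on the chromosome. The outer 5 Mb of the autosomes, measured from position 0 of the sequence and from the last region at the other end, held 19610 shared regions, 24.5% of all. There 12.0% (11.5 to 12.4%) were higher in ubiquitylated H2A.Z and 3.45% (3.21 to 3.72%) in the total form. Further inside, 3.91% (3.75 to 4.06%) were higher in ubiquitylated H2A.Z and 9.11% (8.88 to 9.34%) in the total form. Regions over 1500 bp in the outer 5 Mb were higher in ubiquitylated H2A.Z in 38.7% and in total H2A.Z in 1.32% of 1292 cases. Further inside, the 1261 regions over 1500 bp were split almost evenly, with 18.1% higher in ubiquitylated H2A.Z and 16.9% in the total form. Shared regions were also wider in the outer part, with a median of 510 bp against 403 bp inside. Within a single class of 600 to 1000 bp the shares higher in ubiquitylated H2A.Z were 16.1% in the outer part and 8.70% inside, and those higher in total H2A.Z were 5.69% in the outer part and 17.7% inside. Regions with ubiquitylated peaks only made up 34.6% of merged regions in the outer part and 26.9% inside. Those with total peaks only made up 16.3% and 33.1%. Called shares of all merged regions by place, distance, density, autosome or window are not given here. Patterns with these features are therefore not shown to be particular to shared regions.

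**Figure D3:**
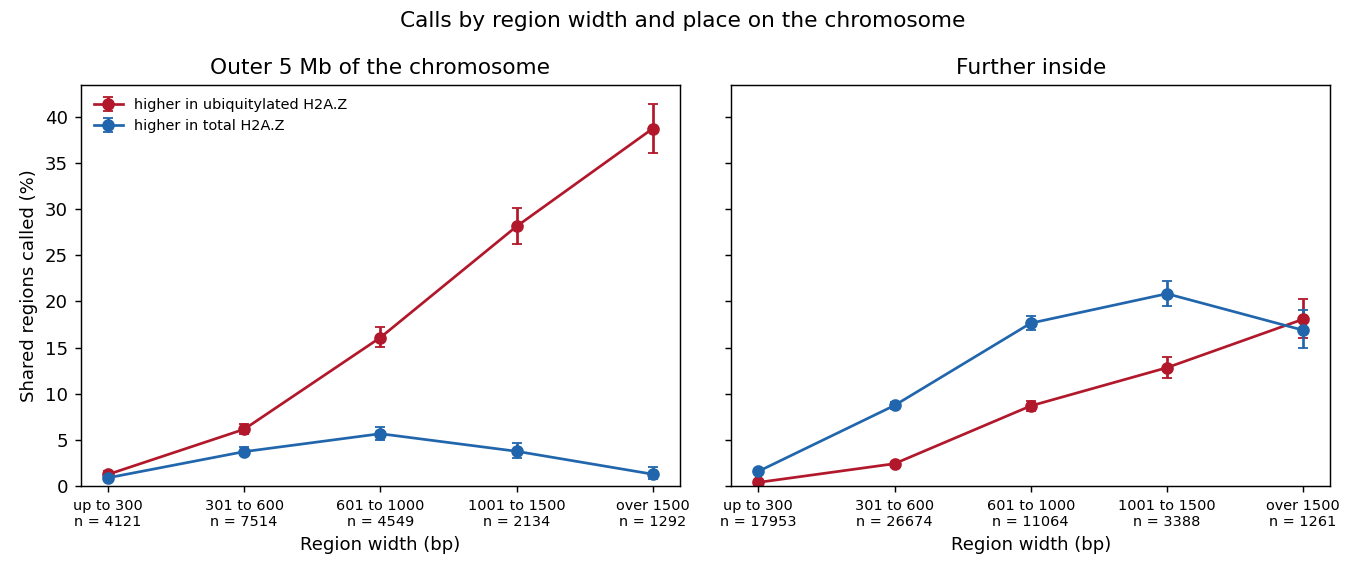
Percentage of shared regions higher in ubiquitylated (red) or total H2A.Z (blue) in the authors' table, by region width in bp, for the outer 5 Mb of the autosomes (left) and the part further inside (right). Points are shares and bars are Wilson 95% intervals. In the outer part the red share reaches 38.7% while the blue stays under 6%, and inside both lie between 16% and 19% at the greatest widths.

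The share higher in ubiquitylated H2A.Z changed little beyond 5 to 10 Mb from an end, while the share higher in total H2A.Z went on changing further inside. For ubiquitylated H2A.Z it was 13.7% under 1 Mb from an end, 15.4% at 1 to 2 Mb, 9.97% at 2 to 5 Mb, 4.36% at 5 to 10 Mb and 3.90% beyond 50 Mb. For total H2A.Z it was 4.30% under 1 Mb, 2.77% at 1 to 2 Mb, 3.51% at 2 to 5 Mb, 5.62% at 5 to 10 Mb and 10.6% beyond 50 Mb. Shared regions were also a larger part of all merged regions near the ends, 51.5% at 1 to 2 Mb against 38.7% beyond 50 Mb. Regions with total peaks only made up 13.4% of merged regions at 1 to 2 Mb and 35.2% beyond 50 Mb.

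Peak density moved with the distance from the ends. In 1 Mb tiles with over 300 merged regions, 11.8% of shared regions were higher in ubiquitylated H2A.Z and 2.92% in the total form. In tiles with up to 20 merged regions these shares were 4.04% and 11.9%. Within the outer 5 Mb, tiles with over 200 regions had 13.5% of shared regions higher in ubiquitylated H2A.Z and 2.76% in the total form. Sparser tiles of the outer part had 6.28% and 6.04%. Further inside, tiles with over 200 regions had 4.12% of shared regions higher in ubiquitylated H2A.Z and 6.92% in the total form, and sparser tiles had 3.83% and 9.84%. The outer minus inner difference for ubiquitylated H2A.Z was 8.07 percentage points over all shared regions and 2.45 points in tiles with up to 200 regions. Dense tiles held 15456 of the 19610 outer shared regions and 15045 of the 60340 inner ones, and the part of density in the end pattern was not tested beyond these values.

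The end pattern recurred across autosomes with different strength. The share higher in ubiquitylated H2A.Z was larger in the outer 5 Mb than inside on 22 of 22 autosomes, with 11.3 ± 5.07% in the outer part and 3.93 ± 0.861% inside (mean ± SD over autosomes). The share higher in total H2A.Z was smaller in the outer part on 21 of 22, with 4.09 ± 2.47% in the outer part and 9.06 ± 1.37% inside. Chromosome 13 was the exception for total H2A.Z, with 12.9% of 101 outer regions against 9.28% inside. Chromosome 1 had the greatest contrast for ubiquitylated H2A.Z, with 23.4% of 687 outer regions against 3.90% inside. On chromosomes 15 and 13 the outer shares were 3.39% and 2.97%, close to 2.63% and 2.53% inside. Chromosome 3 had 4.39% of 114 outer regions against 3.55% inside. Chromosome 18 had the fewest outer regions, 90, of which 10.0% were higher in ubiquitylated H2A.Z against 2.70% inside. With so few outer regions, chromosomes 3, 13 and 18 add little to the counts of autosomes.

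Over whole autosomes, 5.85 ± 1.72% of shared regions were higher in ubiquitylated H2A.Z and 7.73 ± 1.41% in the total form (mean ± SD, 22 autosomes). On 5 autosomes, chromosomes 7, 8, 20, 21 and 22, shared regions higher in ubiquitylated H2A.Z outnumbered those higher in total H2A.Z. The highest share towards ubiquitylated H2A.Z was 8.98% on chromosome 8 (7.99 to 10.1%) and the lowest 2.57% on chromosome 13 (1.83 to 3.58%). The share towards total H2A.Z was highest on chromosome 3 (9.85%, 8.94 to 10.8%) and lowest on chromosome 21 (4.35%, 3.51 to 5.37%). Shared regions formed 41.4 ± 4.09% of the merged regions of an autosome. Chromosome 18 was lowest with 571 of 1981 (28.8%), and chromosome 21 highest with 1864 of 3758 (49.6%).

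**Figure D4:**
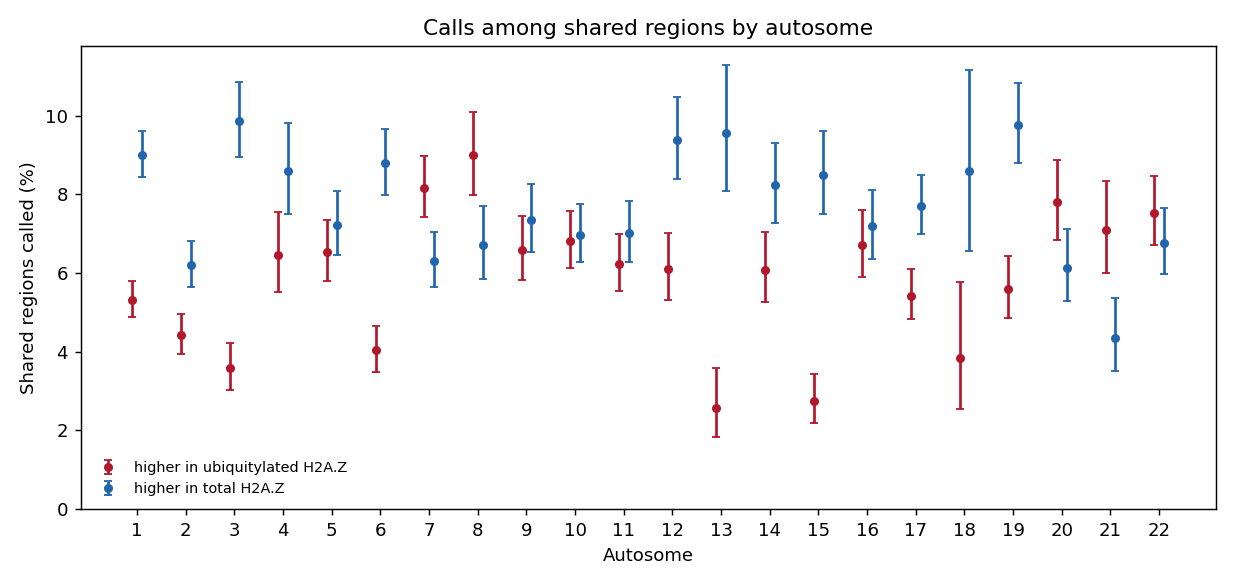
Percentage of the shared regions of each autosome that were higher in ubiquitylated (red) or total H2A.Z (blue) in the authors' table. Points are shares and bars are Wilson 95% intervals. Red lies above blue on chromosomes 7, 8, 20, 21 and 22.

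In windows of 5 Mb with at least 50 merged regions, shared regions made up a median of 37.8% (quartiles 32.7 and 41.9%, 536 windows). The window with the highest share was the end of chromosome 6 from 170 Mb (192 of 290 regions, 66.2%), followed by the end of chromosome 7 from 155 Mb (1129 of 1743, 64.8%). The last window of a chromosome can cover less than 5 Mb, as that of chromosome 6 does. In the chromosome 7 window 17.4% of the shared regions were higher in ubiquitylated H2A.Z and 1.42% in the total form. In the adjoining window of chromosome 6, from 165 to 170 Mb, 57.7% of regions were shared, and 4.30% of these were higher in ubiquitylated H2A.Z and 2.91% in the total form. The lowest share was 16.0% (29 of 181 regions) at 70 to 75 Mb of chromosome 18. Among windows with at least 100 shared regions, the first 5 Mb of chromosome 1 had the greatest part higher in ubiquitylated H2A.Z, 160 of 590 (27.1%). The window at 45 to 50 Mb of chromosome 12 had the greatest part higher in total H2A.Z, 23 of 111 (20.7%). These windows were picked out by their values.

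Shared regions lay close to other H2A.Z regions. The nearest merged region was 527 bp away at the median, against 1067 bp for regions with ubiquitylated peaks only and 986 bp for regions with total peaks only. Within 1 kb 63.7% of shared regions had a neighbour, compared with 48.6% of regions with ubiquitylated peaks only and 50.3% of those with total peaks only. Gaps were measured from edge to edge. Shared regions made up 53.7% of merged regions in 1 Mb tiles with over 300 regions and 30.3% in tiles with up to 20. The part of density and of region width in these gaps was not tested. For 19.4% of shared regions the gap to the nearest region was 100 to 200 bp, about the length of DNA in a nucleosome. Shared regions made up 51.7% of all merged regions with such a gap. The spacing was therefore common among single-list regions too and is not particular to shared ones. That nearest region was itself shared in 57.2% of cases at 100 to 200 bp, and in 31.0% beyond 50 kb. These shares were a few points above those of shared regions among all merged regions with such gaps, 51.7% and 27.6%. Shared regions were found singly or in small groups: 24116 stood alone between single-list regions, and 2260 uninterrupted series of 5 or more held 17.9% of them. The longest series were 26 regions at chr14:105025500-105064736, of which 7 were higher in ubiquitylated H2A.Z and 0 in the total form, and 24 regions at chr17:78451967-78488046, of which 2 were higher in ubiquitylated H2A.Z and 0 in the total form.

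The single-list regions beside a shared region went with its direction. Over all shared regions, the nearest region held ubiquitylated peaks only in 24.6% and total peaks only in 26.6%. For shared regions higher in ubiquitylated H2A.Z, the nearest region held ubiquitylated peaks only in 34.0% and total peaks only in 13.1%. For shared regions higher in total H2A.Z, the nearest held ubiquitylated peaks only in 11.8% and total peaks only in 44.1%. The first contrast, higher in ubiquitylated minus higher in total H2A.Z, was 23.7 ± 8.23 percentage points over autosomes and was positive on 22 of 22. The second, higher in total minus higher in ubiquitylated H2A.Z, was 30.9 ± 6.70 points and positive on 22 of 22. Where the nearest region was over 5 kb away the shares were closer, with ubiquitylated peaks only in 38.4% beside regions higher in ubiquitylated and 24.3% beside regions higher in total H2A.Z. Total peaks only were found in 23.5% beside regions higher in ubiquitylated H2A.Z and in 42.8% beside regions higher in the total form. Over all shared regions at this distance each of the 2 kinds made up 32.5%. Taking both flanks, shared regions flanked on both sides by ubiquitylated-only regions had the higher level in ubiquitylated H2A.Z in 9.47% and in total H2A.Z in 2.82% of 6555 cases. Between 2 regions with total peaks only, these shares were 1.87% and 15.1% of 7213 cases. Neighbouring regions were measured in the same libraries, so the flanks are not separate evidence. Calls and single-list regions also both changed with place on the chromosome. The part of place in the neighbour shares was not tested.

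Single regions show the forms behind these numbers. The shared region with the lowest FDR towards ubiquitylated H2A.Z was chr5:1198561-1200177, where a ubiquitylated peak of 1559 bp and a total peak of 208 bp overlapped by 150 bp at the region's edge. The authors' deposited table gave it a log2 fold change of 1.48 (FDR 1.3e-20), which was also the highest among shared regions. At chr22:26555570-26556332 a total peak of 296 bp lay within a ubiquitylated peak of 763 bp, with a log2 fold change of 1.46 (FDR 1.5e-17) in the authors' deposited table. In each of the next 3 regions by FDR a single ubiquitylated peak met several total peaks. At chr1:2614396-2620006 a ubiquitylated peak of 5611 bp covered 4 total peaks with 1372 bp in all, and the authors' deposited table gave 0.80 (FDR 3e-15). At chr7:56885503-56896803 a ubiquitylated peak of 11301 bp covered 8 total peaks with 5001 bp in all, the most peaks in any shared region, with 0.79 (FDR 2.4e-12) in the authors' deposited table. The other was chr1:1529215-1532763, with 3 total peaks.

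Large folds also occurred at narrow regions. At chr1:73856126-73856521 peaks of 396 bp (ubiquitylated) and 205 bp (total) had a log2 fold change of 1.44 (FDR 7e-10) in the authors' deposited table. The IDR of this ubiquitylated peak was 4.59e-07, and that of the total peak 0.0221. The regions chr12:99368609-99369267 and chr12:130651800-130652372 followed, with 1.37 and 1.28 in the authors' deposited table.

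Towards total H2A.Z the lowest FDR belonged to chr4:66533984-66535675, where a ubiquitylated peak of 278 bp lay inside a total peak of 1692 bp and the authors' deposited table gave a log2 fold change of -0.98 (FDR 2e-11). The next 4 were chr10:89578098-89578738, chr17:17203796-17204738, chr1:100434967-100435488 and chr3:38206088-38206516. In each of these 5 regions the total peak spanned the whole region and the ubiquitylated peak lay inside it. The chromosome 3 region had the greatest fold of all shared regions in this direction, -1.31 (FDR 4.9e-09) in the authors' deposited table. Its ubiquitylated peak, 200 bp wide, had an IDR of 0.0423, near the limit of the rule, while its total peak of 429 bp had 1.53e-05. The regions with the next greatest folds lay at chr10:75118114-75118459, chr6:99841597-99842051, chr3:112280069-112280744 and chr15:34516167-34516511, between -1.24 and -1.16 in the authors' deposited table.

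The 5 regions whose poorer IDR was lowest were chr18:34834307-34834972, chr8:128747800-128748051, chr3:142682946-142683374, chr6:158452362-158452737 and chr22:19717598-19718295. All 5 were in neither differential list, as were 86.4% of all shared regions. At the chromosome 8 region the peaks were almost the same, with 251 bp for the ubiquitylated and 249 bp for the total peak and 248 bp in common.

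Of the 5 widest shared regions, 3 lay in a cluster on chromosome 12. The widest was chr12:34483921-34501866, with 17946 bp, 2 ubiquitylated and 3 total peaks, of which 16118 bp were in peaks of both forms. It was followed by chr12:34515623-34530550 with 14928 bp, while chr12:34504897-34513924 with 9028 bp was the fifth. With 3 more regions over 4.5 kb they lay within 72.8 kb, in which all 11 merged regions were shared. This cluster was picked out after its values were seen. Of its 6 regions over 4.5 kb, 1 was higher in ubiquitylated H2A.Z and 0 in the total form. The cluster ended 204 kb before a stretch of 3.17 Mb without a peak of either form. The other 2 of the 5 widest were chr7:56885503-56896803, described above, and chr14:104564695-104574925 with 10231 bp, which the authors' deposited table placed higher in ubiquitylated H2A.Z (0.34, FDR 0.0055). Of all 167 shared regions over 3000 bp, 120 lay in the outer 5 Mb. Of the 47 further inside, 13 lay within 2 Mb of a stretch of at least 1 Mb without peaks. The share of all inner shared regions that lie so near such a stretch is not given. Nothing is therefore read from this count. Higher in ubiquitylated H2A.Z were 62 of the 120 and 19 of the 47.

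**Figure D5:**
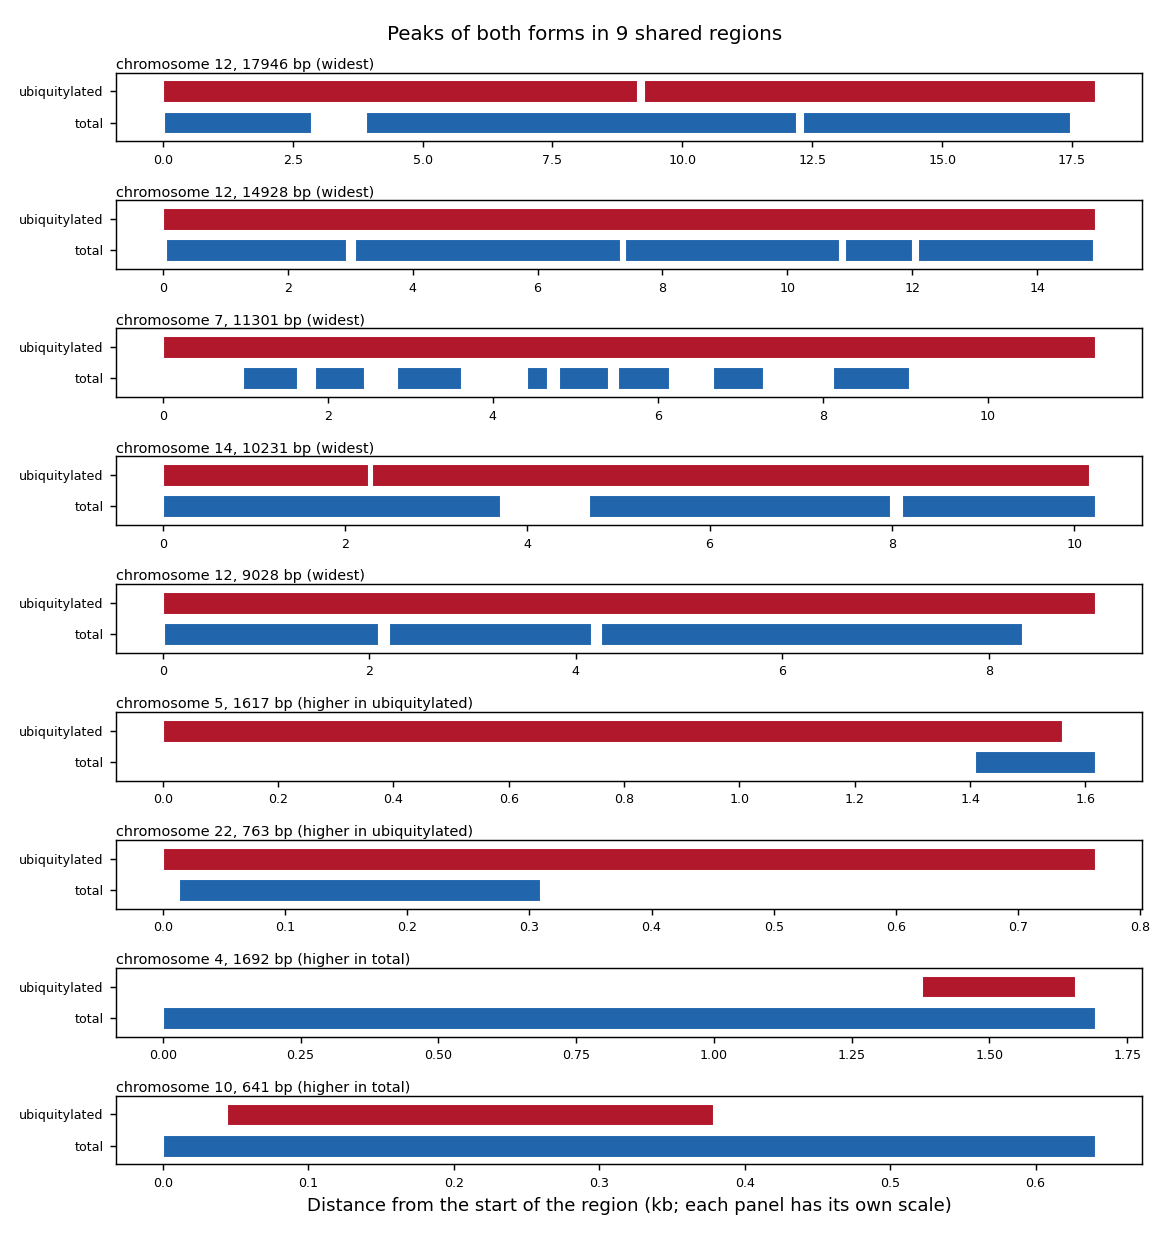
Peaks of ubiquitylated (red, upper row) and total H2A.Z (blue, lower row) in the 5 widest shared regions and in the 2 of lowest FDR in each direction, against the distance from the region's start in kb. Each panel has its own scale. On chromosome 7 a single ubiquitylated peak of 11301 bp spans 8 total peaks, and on chromosome 4 the total peak of 1692 bp holds a ubiquitylated peak of 278 bp.

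Other shared regions with many peaks were chr15:102298067-102305292, with 1 ubiquitylated peak across 6 total peaks, and chr16:1128063-1133866 and chr21:44588224-44593901, with 3 peaks of each form. The authors' deposited table placed the chromosome 16 region higher in ubiquitylated H2A.Z, at 0.35 on the log2 scale (FDR 0.0041), and left the other 2 out of both lists. The genes at these regions were not analysed here.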

How the data were processed

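The submitters' processing notes list Bowtie, SAMtools, MACS2 and edgeR and the build hg19, without roles or settings here. The authors deposited a peak list for each H2A.Z form, per the labels. Each peak has a number of at most 0.05, taken as an IDR (akin to a q-value), deposited by the authors. Whether it is local or global is not stated. They also deposited differential regions with an FDR and a fold change, treated as log2 because the authors' tools include edgeR. How libraries were normalised is unstated. The H3 samples enter no comparison.

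Starts were raised by 1 base to give 1-based coordinates. All 42574 differential regions equalled a merged region. Shares, medians and Spearman correlations were computed with Python 3.11.15, numpy 2.4.6, pandas 2.3.3 and scipy 1.17.1, and figures with matplotlib 3.10.9. Merging and pairing were tested on simulated data. No test was run, for want of values per library. Regions were named by rule: in each direction the 5 of lowest FDR and the 5 of greatest fold, and the 5 of lowest poorer IDR, greatest width and most peaks. Members, rule and lists were chosen with earlier results of these data known. Gene context and sequence were not analysed here. The closing section gives the alternatives tried.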

Additional observations from a re-analysis of the deposited data

How the results depend on the processing

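No paired analysis was possible because the lists hold no values per library, and so none could be left out in turn. Of the planned settings, 2 that need an hg19 genome or annotation were not run. Shared regions were 34.7% of merged autosomal regions with peaks of an IDR of at most 0.01, 37.0% where 50% of both peaks had to overlap and 39.3% without the outer 10 Mb, against 41.9% as reported. The part higher in ubiquitylated H2A.Z was 5.72%, 4.69% and 3.77% under these settings, and the part higher in total H2A.Z 8.57%, 6.38% and 9.86%, against 5.89% and 7.72%. Called shares of all merged regions are not given for the IDR, overlap and outer 10 Mb settings. The moves are therefore not shown to be particular to shared regions. With an FDR of at most 0.01 the parts were 2.94% (2350 regions) and 4.44% (3553), over all merged regions 5.26% and 7.21%. With at least 2-fold changes they were 0.0288% (23) and 0.0588% (47). In regions with 1 peak of each form 5.41% were higher in ubiquitylated H2A.Z. Under each of these settings that gave both parts, total H2A.Z had the larger part. The contrast between outer and inner parts had the same sign in all 10 alternatives, which were chosen after seeing the data, as were the settings without the outer 10 Mb for the differential parts, by peak number and by distance to the nearest region. For ubiquitylated H2A.Z it was 8.07 percentage points and fell to 2.45 points in tiles with up to 200 regions, and for total H2A.Z it was -5.66 points and -12.0 points in regions of 600 to 1000 bp. The cause was not tested. Depth is unknown, so the limit it sets on narrow regions cannot be given.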

Other observations

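Chromosome X, which the rule leaves out, held 3141 regions with peaks of both forms among 7493 merged regions (41.9%, Wilson 95% interval 40.8 to 43.0%). Of these, the authors' deposited table placed 251 (7.99%, 7.09 to 8.99%) higher in ubiquitylated and 78 (2.48%, 1.99 to 3.09%) higher in total H2A.Z. The merged regions of chromosome X of all kinds had 13.3% towards ubiquitylated H2A.Z and 3.94% towards the total form, against 9.23% and 12.4% over all merged autosomal regions. Among regions with both peaks the share on chromosome X towards total H2A.Z was below that of each of the 22 autosomes, of which chromosome 21 was lowest with 4.35%. The share towards ubiquitylated H2A.Z was exceeded on chromosomes 7 (8.16%) and 8 (8.98%). The median width was 430 bp on chromosome X and 425 bp on the autosomes.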
